A study of Mus musculus with 5 samples.

Results

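The genes described here are the cadherins and protocadherins, the calcium-dependent adhesion receptors of the cadherin superfamily, as measured in mandibles dissected from mouse embryos at day 10.5 of gestation. Rows named Cdh with a number or beginning with Pcdh were taken from the count table, without the epithelial Cdh1 and the endothelial Cdh5, which gave 92 rows. Of these, 62 had 15 or more counts in all over the 5 libraries and are the members, among 23441 gene rows of the table. They are 13 numbered cadherins of 21 rows, 11 non-clustered protocadherins of 12 rows and 38 clustered protocadherins of 59 rows. The other 30 rows fell below the minimum, with Cdh8 at 14 counts, Pcdhb12 and Pcdhb15 at 13 and Pcdh15 at 12 just under it, and Cdh12 at 15, Pcdhb14 at 17 and Cdh20 and Pcdhb18 at 18 just over it.

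Poly(A) RNA was sequenced in 3 control and 2 double conditional knockout (dCKO) libraries. The controls had the genotype Yapf/f, Tazf/f with no Cre named, on a 129SvEv background, and the dCKO libraries Wnt1Cre; Yapf/f, Tazf/f on C57BL/6J x CBA/J; 129SvEv. Both groups thus carry floxed alleles of Yap and Taz, transcriptional coactivators of the Hippo pathway, and Wnt1Cre is active in the premigratory neural crest, whose descendants share the tissue with epithelium, endothelium, blood and mesoderm. Strain background and genotype cannot be told apart. The labels do not say whether each library is 1 embryo or a pool, so p-values measure the spread between these libraries, which may be technical in part. Sex-linked transcripts, given below, differ between the 2 dCKO libraries and between control replicate 3 and the other controls. These were therefore not made from the same RNA, while control replicates 1 and 2 may be technical repeats.

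In classical cadherins the extracellular repeats bind the same cadherin on a neighbouring cell, and the cytoplasmic tail binds beta-catenin and p120-catenin and through them the actin cytoskeleton. In the cranial neural crest and its mesenchyme, type I Cdh2 and type II Cdh6 and Cdh11 are the best known members. Non-clustered protocadherins (the delta-1 and delta-2 groups and a few others) are weaker adhesion receptors, and several delta-2 members bind the WAVE actin-regulating complex. The clustered protocadherins come from the neighbouring alpha, beta and gamma gene arrays. In the alpha and gamma arrays each variable first exon has its own promoter and is spliced to constant exons shared by the whole array, and neurons use mixtures of these isoforms as a cell-surface label.

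Library totals ran from 6491137 to 7439419 counts in the controls and from 11346480 to 13298973 in the dCKO libraries, and 59 to 62 of the 62 members had at least 1 count in each. Yap1 stood at 312, 475 and 512 CPM, the count scaled to library size, in control replicates 1, 2 and 3 and at 175 and 170 in dCKO replicates 1 and 2, and Wwtr1, the gene of Taz, at 38.4, 65.1 and 66.2 against 22.7 and 22.8. All 10 cranial mesenchyme markers on the list used were present, at control means from 73.7 CPM upward. Of these, 3 were lower in dCKO past the test and 1 higher, beside 1.42% and 5% of all genes tested. The 10 markers summed to 2326 to 2457 CPM in controls and 2118 to 2271 in dCKO. The summed CPM of 13 epithelial markers was 441 to 552 against 652 to 677, and that of 12 endothelial markers 327 to 358 against 369 to 417. Of these, 3 epithelial and 2 endothelial markers were higher past the test and 0 lower. Embryonic globin transcripts (Hbb-bh1, Hbb-y and Hba-x) took 0.335% to 0.441% of the control counts and 5.30% and 7.43% of the dCKO counts. Control replicate 3 stood apart at Hand1, a transcription factor of the arch mesenchyme, with 5.50 CPM against 70.1 to 91.6 in the other 4 libraries. Xist, the transcript of the inactive X chromosome, was at 343 CPM in control replicate 3 and 414 in dCKO replicate 2 but at 0, 0 and 1.29 in control replicates 1 and 2 and dCKO replicate 1, in which the Y-linked Ddx3y was at 38.2 to 64.2.

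The 2 groups were compared gene by gene. N-cadherin (Cdh2) and Pcdh19 were lower in dCKO. With the low-count filter used here, no member was higher past the test by edgeR, DESeq2 or limma-voom. Without that filter edgeR also called Cdh4 and Pcdhb22, whose dCKO values were above every control. Of the 62 members, 40 had enough counts to be tested, and 2 of these 40 passed edgeR's quasi-likelihood F test at a Benjamini-Hochberg adjusted p under 0.05, both lower. The same fit called 816 of 12710 genes (6.42%), with 636 higher (5%) and 180 lower (1.42%). At an unadjusted p under 0.05 there were 7 of 40 members, beside 21.5% of all genes tested. The dCKO values lay wholly outside the control values for 12 of 40 members, 6 above and 6 below, where the share over all genes tested was 37.6% (19% above and 18.6% below). For the 40, the log2 fold changes had a median of 0.04. It was 0.08 for the 8 tested cadherins, 0.23 for the 9 non-clustered protocadherins and -0.03 for the 23 clustered ones, and -0.00062 over all genes tested. The count of members called was 0 without dCKO replicate 1 and 1 without dCKO replicate 2, and 3 without control replicate 3 or with Xist as a term in the fit, Pcdh18 being the addition.

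**Figure D1:**
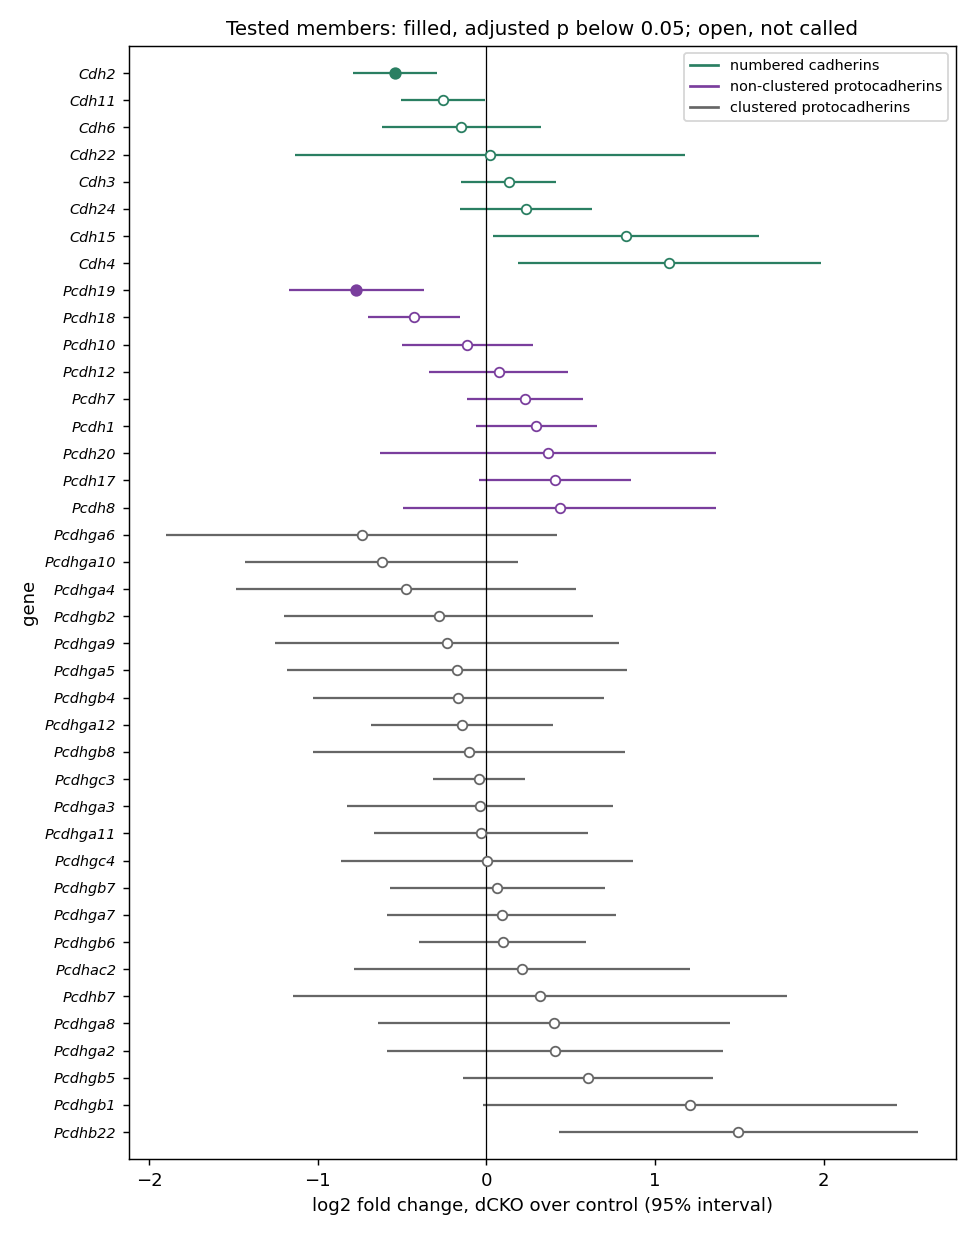
Log2 fold change, dCKO over control, of the 40 tested members with 95% confidence intervals, by family (colour); filled points have an adjusted p under 0.05 and open points do not. Cdh2 and Pcdh19 are the filled points, both to the left of 0, and the intervals of the low-count clustered genes are the widest.

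Levels of different genes were set side by side per kilobase of exon, leaving out exon bases shared with 3 or more other genes, such as the constant exons of the gamma array. On this scale the control mean was 60.1 CPM per kb for the gamma protocadherin Pcdhgc3, 45.0 for Cdh11, 26.7 for Pcdh18, 25.5 for Cdh3 and 19.8 for Cdh2, with the sixth, Cdh24, at 7.01. These 5 genes were also the highest 5 in dCKO, at 58.2 CPM per kb for Pcdhgc3, 37.7 for Cdh11, 27.9 for Cdh3, 19.8 for Pcdh18 and 13.6 for Cdh2. The place of Pcdhgc3 depended on the length used. Divided by all its exon bases, its control mean was 32.9 CPM per kb and its dCKO mean 31.9, below Cdh11 in both groups, and no source used here says how reads of the shared exons were counted. The neighbours Pcdh18 (24.2 to 29.7 CPM per kb) and Cdh3 (23.1 to 30.1) overlapped across the control libraries, so their order there is not beyond the spread. Their dCKO values did not overlap, at 18.5 and 21.1 CPM per kb for Pcdh18 and 28.6 and 27.2 for Cdh3. Pcdh19 was seventh in the controls at 4.69 CPM per kb, with control libraries from 3.91 to 6.13 that overlap those of Pcdhgb6 (3.22 to 5.12) on the unshared length. In dCKO it was at 2.73 CPM per kb. On either length the 5 highest members were a gamma protocadherin, classical cadherins of both types and a delta-2 protocadherin.

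Among the type I classical cadherins, Cdh2, which carries adhesion in neural crest, mesenchyme, heart and neural tissue, had 91.8, 102 and 100.4 CPM in the 3 controls and 64.4 and 70.1 CPM in the 2 dCKO libraries. Both dCKO values lay below every control. The group means were 98.0 ± 5.36 (SD, n = 3) and 67.3 ± 4.05 CPM (SD, n = 2), a log2 fold change of -0.54 (SE 0.12, 95% interval -0.79 to -0.29, edgeR adjusted p = 0.007). With 1 dCKO library the value stayed at -0.47 (without dCKO replicate 1, adjusted p = 0.149) or -0.60 (without dCKO replicate 2, adjusted p = 0.0583), and the call was lost in both cases. Without control replicate 3 it was -0.53 (adjusted p = 0.0121). Within the libraries with Xist the log2 ratio of Cdh2 was -0.52 and within those without it -0.59. In bulk tissue, fewer cells of a type and less RNA per cell cannot be told apart. The part of the lower mesenchyme and higher epithelial and erythroid marker levels in this difference was not tested. Leaving the listed erythroid genes out of the table gave -0.54 again. That setting can change only the scaling and cannot test the part of red cells, whose other transcripts stay in the table.

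Cdh3, the P-cadherin of surface epithelia, had 102, 101 and 132 CPM in controls and 125 and 119 CPM in dCKO. Its groups overlapped, with a log2 fold change of 0.13 (95% interval -0.15 to 0.41, adjusted p = 0.613). Cdh4, or R-cadherin, a close relative of Cdh2, was far less abundant, with 0.920, 3.79 and 3.51 CPM in controls and 4.53 and 6.97 CPM in dCKO. Both dCKO values of Cdh4 were above the controls. It was called without the low-count filter, but in the main fit its log2 fold change of 1.09 (SE 0.43, adjusted p = 0.147) did not pass. The muscle cadherin Cdh15 likewise had 1.84, 2.84 and 3.67 CPM against 5.73 and 4.14, a log2 fold change of 0.83 (SE 0.38, adjusted p = 0.207). The summed level of 10 arch mesoderm and muscle markers moved with it, at 88.8 to 102 CPM in controls and 116 to 134 in dCKO, with none of the 8 tested passing the test, and its part in the Cdh15 values was not tested.

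The type II classical cadherins were led by Cdh11, the cadherin of loose mesenchyme and later of bone-forming cells, with 265, 249 and 249 CPM in controls and 196 and 229.6 CPM in dCKO. Both dCKO values were lower than any control, and the log2 fold change of -0.26 (SE 0.12, 95% interval -0.50 to -0.01, unadjusted p = 0.0449) was not called (adjusted p = 0.218). Cdh24 is a type II member known to bind catenins. Its CPM was 23.4, 22.5 and 27.5 in controls and 34.5 and 23.1 in dCKO, so that 1 dCKO library was within the control range (log2 fold change 0.23, adjusted p = 0.496). Cdh6, expressed in early neural crest, had 11.7, 14.6 and 10.2 CPM in controls and 10.4 and 11.6 in dCKO, with a log2 fold change of -0.15 (95% interval -0.62 to 0.33). Its groups overlapped. Cdh22 was tested at about 1 CPM, with a log2 fold change of 0.02 and a 95% interval from -1.13 to 1.18. Cdh10, Cdh12, Cdh19 and Cdh20 had too few counts for the test. Among these, Cdh10 had 9, 8 and 5 counts in controls and 6 in each of the deeper dCKO libraries (1.18, 1.08 and 0.764 against 0.555 and 0.459 CPM). Cdh13, the cadherin held in the membrane by a lipid anchor in place of a cytoplasmic tail, was not tested either, with 0.657, 0.541 and 1.07 CPM in controls and 1.20 and 0.919 CPM in dCKO.

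**Figure D2:**
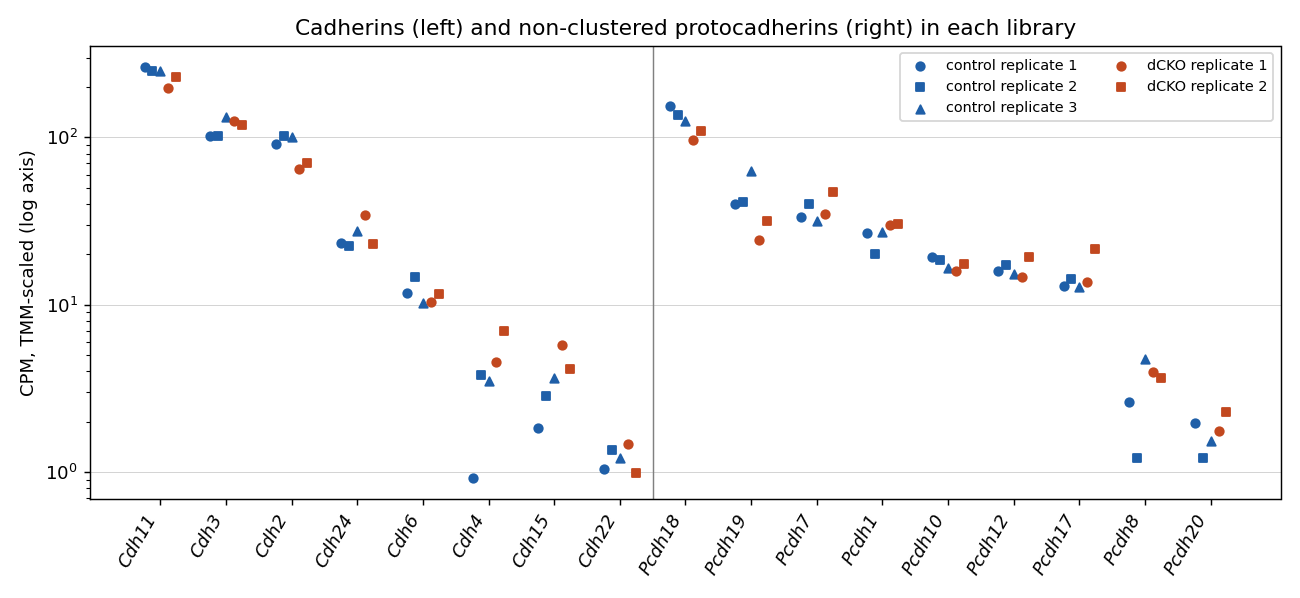
CPM (log axis) of the 8 tested cadherins, left, and the 9 tested non-clustered protocadherins, right, with 1 point for each of 3 control (blue) and 2 dCKO (orange) libraries. Both dCKO points lie under all control points for Cdh11, Cdh2, Pcdh18 and Pcdh19 and above them for Cdh4, Cdh15 and Pcdh1.

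The delta-2 protocadherins include the highest and the most different non-clustered genes. For the delta-2 members whose values the text turns on, the bases upstream of the annotated span of the gene (up to 250) are shown because all 3 were measured in the same libraries with different outcomes: Pcdh19 was called lower, Pcdh18 had lower values in both dCKO libraries without being called, and Pcdh17 did not have lower values. They are from RefSeq on GRCm38.p6, written 5′ to 3′ on the gene's strand, with capitals marking an E-box, the letters CANNTG searched on both strands.
Pcdh19, chrX:133689045-133689243, minus strand: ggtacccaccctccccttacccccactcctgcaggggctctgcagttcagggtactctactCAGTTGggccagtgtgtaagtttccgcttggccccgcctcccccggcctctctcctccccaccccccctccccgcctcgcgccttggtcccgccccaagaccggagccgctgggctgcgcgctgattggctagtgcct
Pcdh18, chr3:49757384-49757566, minus strand: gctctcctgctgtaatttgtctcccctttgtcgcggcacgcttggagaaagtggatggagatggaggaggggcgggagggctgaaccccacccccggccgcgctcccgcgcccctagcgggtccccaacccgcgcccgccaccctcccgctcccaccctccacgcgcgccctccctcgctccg
Pcdh17, chr14:84443313-84443562, plus strand: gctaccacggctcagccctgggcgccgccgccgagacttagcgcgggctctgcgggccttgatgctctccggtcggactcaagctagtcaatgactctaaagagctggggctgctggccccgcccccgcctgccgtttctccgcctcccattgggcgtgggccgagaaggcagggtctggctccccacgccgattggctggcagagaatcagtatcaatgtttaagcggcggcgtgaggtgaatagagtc
These windows of 199, 183 and 250 bases hold 11, 19 and 21 CpG dinucleotides and have a GC content of 68.8%, 72.1% and 64.8%. The TEAD core letters GGAATG, the sequence bound by the TEAD factors through which Yap and Taz act, are in none of the 3 on either strand. Over the 250 upstream bases of 32851 RefSeq promoters, GGAATG was in 12.6%, and it was in 2 of the 15 member genes whose promoters were searched (Cdh10 and Cdh20). Cdh2, Cdh3, Cdh4, Cdh11 and the clustered protocadherins were not among these 15. The E-box CACCTG, read by Snail and ZEB repressors of cadherins, was in 0 of these 15 and in 17.2% of all promoters, and CANNTG, which contains it, in 7 of 15 and 66.2%. Sequence beyond these windows was not searched, and the part of any of these letters in the different outcomes was not tested.

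Pcdh19, an X-linked delta-2 protocadherin that binds N-cadherin, had 40.2, 41.4 and 63.1 CPM in controls and 24.4 and 31.9 CPM in dCKO. Every dCKO value was below every control, and control replicate 3 was the highest library. The means were 48.2 ± 12.9 (SD, n = 3) and 28.1 ± 5.27 CPM (SD, n = 2), with a log2 fold change of -0.77 (SE 0.19, 95% interval -1.17 to -0.37, edgeR adjusted p = 0.0176). In each group the library with Xist had the higher value. Within the libraries with Xist, Pcdh19 was at 63.1 CPM in the control and 31.9 in the dCKO library (log2 ratio -0.99), and within those without it at 40.8 in 2 controls on average and 24.4 in 1 dCKO library (-0.74). The only control with Xist was control replicate 3, so Xist cannot be told apart from other differences of that library. With Xist as a term in the fit, chosen after seeing the data, the log2 fold change was -0.85 (SE 0.15, adjusted p = 2.69e-04). Without control replicate 3 it was -0.54 (adjusted p = 0.0452), and without dCKO replicate 1 it was -0.58 and not called (adjusted p = 0.276).

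Pcdh18, whose protein binds the adaptor Dab1, had 154, 136 and 125 CPM in controls and 95.9 and 109 CPM in dCKO. The groups did not overlap (138 ± 14.6, SD, n = 3, and 103 ± 9.54 CPM, SD, n = 2). Its log2 fold change of -0.43 (SE 0.13, 95% interval -0.70 to -0.16) had an edgeR adjusted p of 0.0547 and is not called here. It lay close to the threshold and passed it under DESeq2 (adjusted p = 0.0307), limma-voom (0.0409), without control replicate 3 (0.0159) and with Xist as a term (0.0349). When the trend with GC content was removed the value was -0.31 (adjusted p = 0.112). Of the other delta-2 genes, Pcdh10 had 19.2, 18.5 and 16.7 CPM in controls and 16.0 and 17.5 in dCKO, which overlap (log2 fold change -0.11). Pcdh17 had 12.9, 14.2 and 12.8 CPM in controls and 13.8 and 21.4 CPM in dCKO, where the 1 high dCKO library carries the log2 fold change of 0.41 (adjusted p = 0.281). Pcdh8, known as paraxial protocadherin for its expression in paraxial mesoderm, had 2.63, 1.22 and 4.74 CPM against 3.97 and 3.68, with the dCKO values within the control range.

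Among the delta-1 protocadherins, which differ from the delta-2 group in having an additional extracellular repeat and a phosphatase-binding motif in the tail, Pcdh7 had 33.5, 39.8 and 31.8 CPM in controls and 34.8 and 47.2 CPM in dCKO. The groups overlapped (log2 fold change 0.23, adjusted p = 0.44). Pcdh1, known from airway and other epithelia, had 26.8, 20.0 and 27.3 CPM in controls and 30.1 and 30.6 in dCKO. Its dCKO values were above every control, but the log2 fold change of 0.30 (95% interval -0.06 to 0.66) was not called (adjusted p = 0.33). Pcdh9 was near 1 CPM in every library, at 1.31, 0.947 and 0.764 against 0.924 and 0.689, and neither it nor the X-linked Pcdh11x was tested. Outside the delta groups, Pcdh12, the protocadherin of endothelial cells, had 16.0, 17.2 and 15.3 CPM in controls and 14.7 and 19.2 in dCKO (log2 fold change 0.07, adjusted p = 0.876). The endothelial Cdh5, which is no member, averaged 74.7 CPM in controls and 81.7 in dCKO and was not called either. It is 1 of 12 endothelial markers, of which 2 (Cldn5 and Egfl7) were called higher and 0 lower. Their log2 fold changes were above 0 for 9 of the 12. Over all genes tested, 5% were called higher and 1.42% lower. The part of endothelial marker levels in the Pcdh12 values was not tested. Pcdh20 had 1.97, 1.22 and 1.53 CPM against 1.76 and 2.30, a log2 fold change of 0.37 with a 95% interval from -0.63 to 1.36.

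The clustered protocadherins were set against the non-clustered ones. None of the 23 tested clustered genes passed edgeR's test (1 had an unadjusted p under 0.05, and DESeq2 and limma-voom also called 0), and 1 of the 9 tested non-clustered genes did. Over all genes tested, edgeR called 6.42%, and 21.5% had an unadjusted p under 0.05. Without the low-count filter edgeR called 1 clustered gene, Pcdhb22. The log2 fold changes of the clustered genes ran from -0.74 to 1.49, with 11 above and 12 below 0. Of these 23, 5 had groups that did not overlap, where the share over all genes tested was 37.6%. The non-clustered genes ran from -0.77 to 0.43, with 6 above and 3 below 0, and 3 of 9 had groups that did not overlap. These counts are a description, and the difference between the families was not tested. Clustered alpha and gamma genes share constant exons, and beta genes are close copies of each other. No source used here states how such reads were assigned, and values of single clustered genes are uncertain.

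Of the 3 arrays, gamma carried most of the signal in these libraries. All 22 gamma genes reached the count minimum, and 20 were tested. Their summed CPM was 217, 209 and 259 in controls and 221 and 224 in dCKO, so that the dCKO sums lay within the control range (ratio of means 0.976). Pcdhgc3 alone, one of the C-type gamma genes at the downstream end of the array, had 145, 141 and 178 CPM in controls and 152 and 147 in dCKO. Its log2 fold change was -0.04 (SE 0.13, 95% interval -0.31 to 0.23, adjusted p = 0.885), and the groups overlapped. Of the 23 tested clustered genes it had the highest counts and the narrowest interval.

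Pcdhgc3 took 66.7% (95% Wilson interval 64.4% to 68.9%), 67.1% (64.7% to 69.4%) and 68.6% (66.4% to 70.8%) of the gamma counts in control replicates 1, 2 and 3. In dCKO replicate 1 it took 68.9% (67.0% to 70.7%) and in dCKO replicate 2 65.4% (63.7% to 67.1%), where the intervals cover counting error only. The control shares lie between the 2 dCKO shares. The next gamma gene, Pcdhgb6, took 3.94% to 5.55%. It had 11.2, 8.25 and 13.1 CPM in controls and 12.3 and 10.9 CPM in dCKO (log2 fold change 0.10). Pcdhga12, the last A-type gene of the array, had 7.75, 7.57 and 7.64 CPM against 7.21 and 6.66 CPM. Both its dCKO values were below the controls, and the interval of the difference included 0 (log2 fold change -0.14, 95% interval -0.68 to 0.40). Without Pcdhgc3 the other 21 gamma genes summed to 72.3, 68.8 and 81.1 CPM in controls and 68.9 and 77.5 CPM in dCKO, again overlapping. The C-type gene Pcdhgc5 had 5, 5 and 6 counts in the controls, 0 in dCKO replicate 1, which allows up to 0.277 CPM at 3 counts, and 21 counts in dCKO replicate 2 (1.61 CPM).

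**Figure D3:**
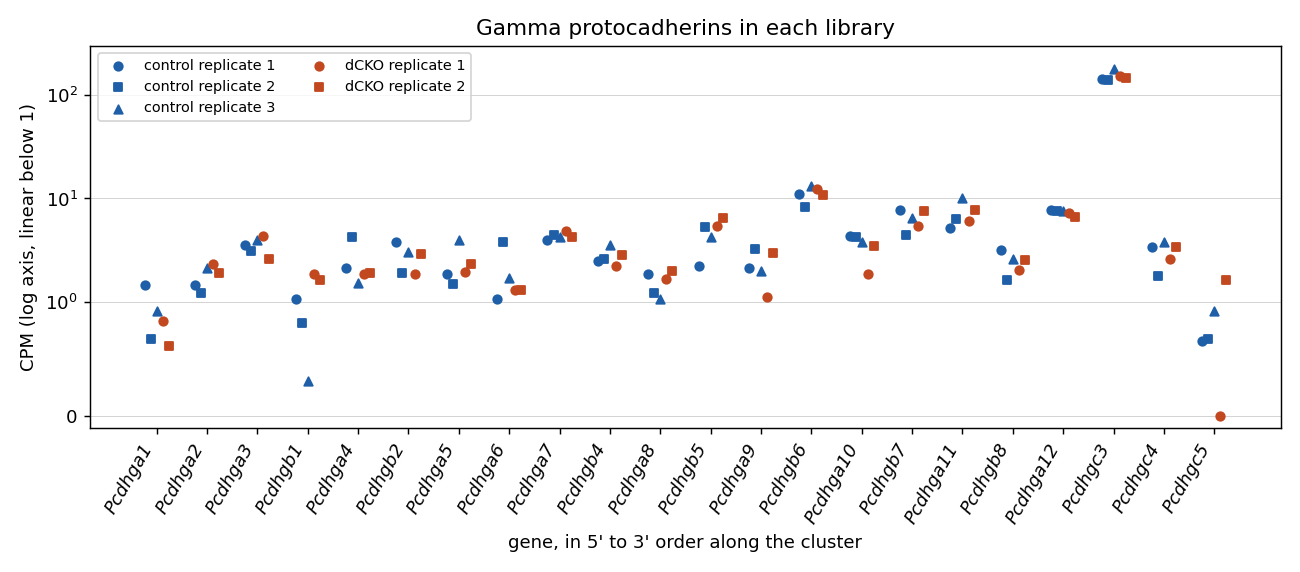
CPM of the 22 gamma protocadherins in 5′ to 3′ order along their array, 1 point per library (3 control, blue; 2 dCKO, orange), on an axis that is logarithmic above 1 and linear below. Pcdhgc3 stands at 141 to 178 CPM in every library while all others are at or below 13.1.

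The beta array was low throughout, and its summed signal was higher in both dCKO libraries than in any control. Its 22 rows summed to 82, 58 and 90 counts in controls and 170 and 255 in dCKO, which is 10.8, 7.85 and 13.7 CPM against 15.7 and 19.5 CPM (ratio of means 1.63, log2 0.71). This sum has no test. Only Pcdhb7 and Pcdhb22 of its 15 members were tested. Pcdhb22 had 1.97, 0.406 and 1.37 CPM in controls and 2.77 and 4.29 CPM in dCKO, both above the controls. Its log2 fold change of 1.49 (SE 0.51, 95% interval 0.43 to 2.56) was not called in the main fit (adjusted p = 0.0899). Without the low-count filter it was called. Pcdhb4, with 0.394, 0.135 and 0.306 CPM against 0.832 and 1.84, and Pcdhb8, with 0.131, 0.271 and 0.611 against 1.20 and 1.07, also had dCKO values above every control, at 1 to 4 counts in each control library. Over all genes tested, 19% had dCKO values above every control. The other beta members did not separate the groups. Among these, Pcdhb17 had 1.31, 0.947 and 1.22 CPM against 0.462 and 2.07, and Pcdhb19 had 1.31, 0.947 and 1.22 CPM against 1.29 and 0.842. The summed level of 13 neural and glial markers was 31.3 to 37.2 CPM in controls and 38.4 to 47.9 in dCKO. Sox10, 1 of the 13, had 0 counts in all controls and 59 and 22 counts in dCKO. Without Sox10, the summed level in dCKO replicate 2 lay within the control range. Of the 5 tested markers, 3 had a log2 fold change above 0 and 2 below, with a median of 0.02. The groups overlapped in 4 of these 5. The part of these markers in the beta sum was not tested.

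The alpha array gave almost no signal. Of its 15 rows, 1 reached the count minimum, the C-type gene Pcdhac2, with 1.58, 3.11 and 1.22 CPM in controls and 2.22 and 2.37 CPM in dCKO. The groups overlapped (log2 fold change 0.21, 95% interval -0.78 to 1.21). The whole array summed to 1.71, 3.92 and 1.68 CPM against 2.77 and 2.83. The log2 ratio of the group means was 0.20, and 0.73 without control replicate 2, when both dCKO sums lay above the remaining controls. These sums rest on 11 to 37 counts per library and have no test.

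**Figure D4:**
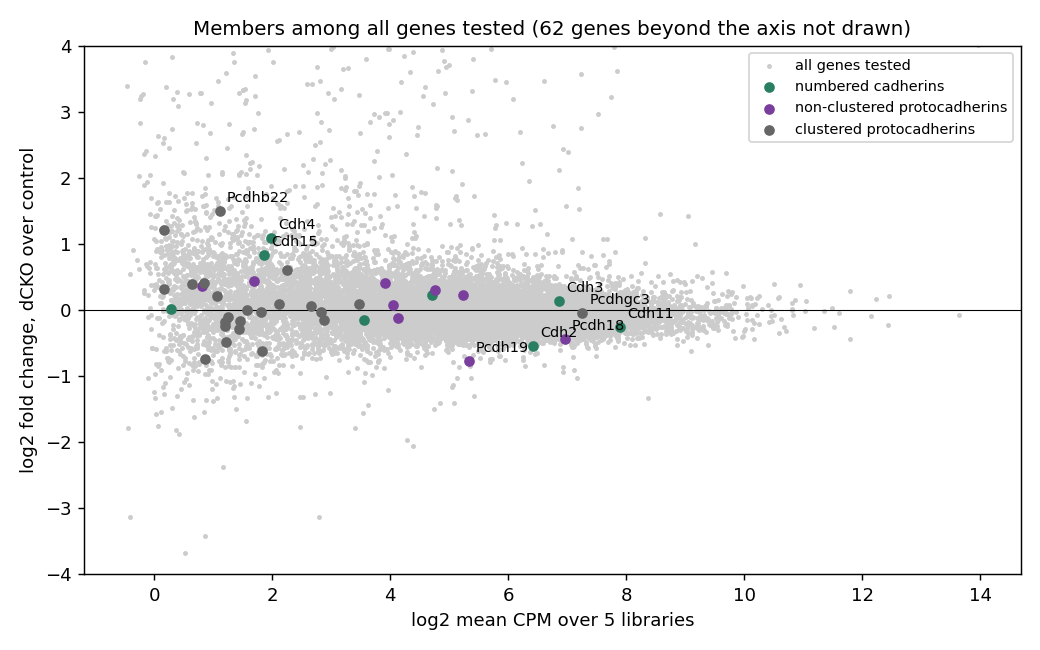
Log2 fold change, dCKO over control, against log2 mean CPM over the 5 libraries for all 12710 genes tested (grey; 62 lie beyond the axis limit of 4 and are not drawn), with the tested members coloured by family. Cdh2, Pcdh18 and Pcdh19 lie in the lower part of the cloud at their level, while most clustered genes sit at low CPM, where the cloud is wide.

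Genes that work with cadherins were read from lists drawn up with earlier results of these data known. The shares over all genes tested, to set beside the counts of every list, were 5% higher, 1.42% lower and 21.5% with an unadjusted p under 0.05. Of 18 tested catenins and adherens junction adaptors, 1 was lower and 0 higher, the median on the log2 scale being -0.06. The 1 was Pvrl3, the nectin that pairs with Pvrl1 at adherens junctions, with 57.3, 54.4 and 44.0 CPM in controls and 32.0 and 35.5 CPM in dCKO (log2 fold change -0.62, SE 0.15, edgeR adjusted p = 0.015). Both dCKO values were below the controls, and the call was lost without control replicate 1 (adjusted p = 0.104), dCKO replicate 1 (0.211) or dCKO replicate 2 (0.0617). Jup, the plakoglobin shared by adherens junctions and desmosomes, was not called at 54.0, 52.5 and 67.5 against 65.1 and 78.8 CPM. It was called only when control replicate 3 was left out or a replicate block was used, which also takes that library out of the group difference. None of the 14 tested atypical cadherins and other superfamily genes passed edgeR's test (3 had an unadjusted p under 0.05, DESeq2 and limma-voom called 0), with a median of 0.11. They included the planar polarity cadherin Celsr1 (29.6, 29.4 and 41.6 CPM against 44.7 and 46.3, adjusted p = 0.113) and the desmosomal cadherin Dsc2 (6.83, 6.22 and 4.43 against 9.61 and 10.4, adjusted p = 0.0916). Celsr1 alone was called without control replicate 3.

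Of 6 tested desmosome plaque genes, 2 were higher and 0 lower, beside 5% and 1.42% of all genes tested. All 6 had a positive log2 fold change, with a median of 0.54. Pkp2, a plakophilin, rose from 6.83, 7.44 and 5.19 CPM to 13.7 and 13.1 CPM (log2 fold change 1.04, SE 0.24, adjusted p = 0.0111), and lost its call without dCKO replicate 1 (adjusted p = 0.114) or dCKO replicate 2 (0.0722). The plakophilin Pkp3 rose from 9.46, 10.1 and 12.1 CPM to 17.3 and 17.5 (log2 fold change 0.72, SE 0.20, adjusted p = 0.0408). Its call was lost when any library other than control replicate 3 was left out, under DESeq2 (adjusted p = 0.0555) and with the GC trend removed (0.17). Epithelial markers moved with these genes: all 13 had a positive log2 fold change, 3 of them passing the test (Krt8, Krt18 and Krt19), and their part in the plakophilin values was not tested.

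Of 16 tested signalling partners of protocadherins, 2 were higher and 2 lower, with a median of -0.09, beside 5% higher and 1.42% lower over all genes tested. The WAVE complex genes Nckap1 and Wasf1 fell, from 233, 218 and 191 to 144 and 167 CPM for Nckap1 (log2 fold change -0.46, SE 0.13, adjusted p = 0.0385) and from 87.0, 80.6 and 75.8 to 55.9 and 61.6 CPM for Wasf1 (-0.47, SE 0.13, adjusted p = 0.0306). The WAVE complex subunit Cyfip2 rose from 14.98, 15.3 and 17.9 to 24.1 and 26.9 CPM (log2 fold change 0.67, SE 0.18, adjusted p = 0.0278). The kinase Ptk2b, held inactive by clustered protocadherins in neurons, rose from 0.526, 0.406 and 1.22 to 2.31 and 4.67 CPM (log2 fold change 2.31, SE 0.55, adjusted p = 0.0133). Each of these calls depended on single libraries: of the 4, 0 remained without control replicate 1 or without dCKO replicate 2, and 1, Ptk2b, without control replicate 2 or without dCKO replicate 1. Nckap1 was also not called under the stricter filter (adjusted p = 0.0547) or with the GC trend removed (0.0675). Ptk2b is also expressed in blood cells, and the summed level of 10 megakaryocyte and platelet markers was 15.4 to 25.3 CPM in controls and 108 and 203 CPM in dCKO, and its part in the Ptk2b difference was not tested.

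The 18 genes for CTCF, cohesin and other regulators of clustered protocadherin promoters gave 0 calls by edgeR, DESeq2 and limma-voom, with 13 of 18 below 0 and a median of -0.09. Of these 18, 4 had an unadjusted p under 0.05 in the edgeR fit, beside 21.5% of all genes tested. Stag1 (174, 174 and 163 CPM against 125 and 142, adjusted p = 0.0973) and Pds5a (216, 193 and 187 against 149.9 and 164, adjusted p = 0.104) had the smallest p-values, and without control replicate 3 Stag1, Pds5a and Smc3 were called lower. The 10 tested transcription factors of the cadherin switch gave 0 calls by the same 3 tools (2 had an unadjusted p under 0.05). Zeb2 had 10.6, 16.4 and 15.7 CPM against 18.0 and 24.6, and Tcf4, the E2-2 factor, 197, 204 and 209 against 152 and 169, where Tcf4 was called with Xist as a term in the fit. The 13 tested proteases that cleave cadherins or their precursors gave 0 calls by edgeR, DESeq2 and limma-voom (1 had an unadjusted p under 0.05), with a median of 0.08.

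In the authors' deposited table, which lists all 62 members, 1 has an adjusted p under 0.05. It is Cdh2, with a log2 fold change of -0.52 and an adjusted p of 0.0412 in the authors' deposited table. Pcdh19 has -0.75 with an adjusted p of 0.516 there, and Pcdh18 -0.41 with 0.167, both in the authors' deposited table. Of the 40 tested members, 38 have the same sign of fold change in the authors' deposited table as in the edgeR fit, both from the same 5 libraries.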

How the data were processed

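Poly(A) RNA of 5 libraries (3 control, 2 dCKO) was made into libraries by the Ion Total RNA-Seq v2 protocol, per the labels' protocols. The authors deposited raw read counts per gene symbol for all libraries. The tools that the submitters' processing notes name are HTSeq 0.5.4p3 and DESeq 1.16.0, with genome build mm9. No source used here gives the aligner, annotation, counting mode or use of strand. Their own deposited comparison has, per the file headers, a mean signal (normalized counts) for each gene, the fold change as a ratio, its log2 value, a p-value and an adjusted p-value. Count columns headed WT with a replicate number were matched to the control titles.

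Counts were analysed in R 4.3.3 with edgeR 4.0.16: filterByExpr (minimum count 10, total 15), TMM, quasi-likelihood F test, two-sided, Benjamini-Hochberg over 12710 genes, threshold 0.05. Adjusted p-values are from this fit unless another tool is named. CPM is TMM-scaled, and standard errors divide the size of the log2 fold change by the root of F. CPM per kb divides by exon bases of GENCODE M21 (GRCm38) that are not in exons of 3 or more other genes. Replicate pairs differed beyond sampling noise (chi-square per gene 3.70 to 10.9), so 5 samples were kept. Library totals of 6491137 to 13298973 counts make 1 count worth 0.0766 to 0.153 CPM. The fit was tested on simulated counts with known changes.

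The members, the lists and the alternatives were chosen with earlier results of these data known. The members with values in every library are those called, the 3 with the highest mean CPM in each class, and those with an unadjusted p under 0.05 and a mean of at least 5 CPM. Cdh15, Cdh10, Pcdh17, Pcdh8, Pcdhb4, Pcdhb8 and Pcdhgc5 were added after their values were seen. Of the lists, called genes and a few with the smallest p are named. Alternatives were RLE scaling, DESeq2 1.42.0, limma-voom (limma 3.58.1), no filter beyond 1 count, a stricter filter (at least 1 CPM in 2 libraries, mean at least 5 CPM), leaving out single libraries, a replicate block, a GC trend removed (GC known for 99.3% of genes), both together, and erythroid genes removed. Chosen after seeing the data were Xist of 10 CPM or more as a term, CPM per kb over all exon bases and the settings for array sums. With 1 dCKO library left, it was taken to vary like the controls. Promoters are from RefSeq (GRCm38.p6). No other coordinates are given, since the counts are on mm9.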

Additional observations from a re-analysis of the deposited data

How the results depend on the processing

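Beside 2 members called, removing the low-count filter gave 5 (Cdh4, Pcdh18 and Pcdhb22 added), leaving out a library 0 to 3 and the replicate block 4. Clustered genes called went from 0 to 1 without the filter. Non-clustered genes called went from 1 to 2 under DESeq2, limma-voom, no filter, the replicate block and the Xist term, and to 0 to 2 with a library left out. Numbered cadherins called went from 1 to 2 without the filter and under the replicate block, and to 0 to 1 with a library left out. All genes called went from 816 to 2121 under the replicate block and to 442 to 1637 with a library left out. Correlations of deviations between libraries of the same replicate number were 0.08 and -0.0042 over 2 pairs. They cannot show whether the numbers pair the libraries, since the deviations of the 2 dCKO libraries mirror each other. Control replicate 3 is the only library with its number, so the block also takes it out of the group difference. Under the block Pcdh19 was -0.54 (adjusted p = 0.0193), and with block and GC trend -0.46 (0.0525), its call lost.

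Of the lists, atypical cadherins called went from 0 to 1 under the replicate block and with the GC trend removed (0 to 1 with a library left out), and catenins from 1 to 2 under the block (0 to 2). Desmosome genes went from 2 to 1 under DESeq2, with the GC trend removed and with block and GC trend (0 to 2), and switch factors from 0 to 2 with the block, alone or with the GC trend, and to 1 with the Xist term. Promoter regulators went from 0 to 3 under the block (0 to 3 with a library left out), and signalling partners from 4 to 2 under the stricter filter (0 to 4).

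The sign of the log2 fold change turned only for uncalled values, which lay between -0.15 (Cdh6) and 0.23 (Cdh24) in the main fit. With the GC trend removed Cdh24 was -0.019, Cdh6 0.030, Pcdh10 0.046 and Pcdhgb6 -0.0034, with block and GC trend Cdh24 was -0.044, Pcdh10 0.038 and Pcdh12 -0.056, and under the replicate block Pcdhgc3 was 0.069. With single libraries left out Cdh24 ran from -0.067 to 0.50, Cdh6 from -0.26 to 0.0012, Pcdh7 from -0.0081 to 0.44, Pcdh12 from -0.13 to 0.26, Pcdhgc3 from -0.11 to 0.061, Pcdhgb6 from -0.069 to 0.24 and Cdh5 from -0.045 to 0.30. The cause was not tested for any of these. With single libraries left out, the log2 ratio of the array sums ran from -0.0063 to 0.73 for alpha (0.20 with all libraries), 0.52 to 0.92 for beta (0.71) and -0.094 to 0.064 for gamma (-0.035). Depth limits the beta and alpha genes, most of which were below the minimum or untested.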
